A study of Mus musculus with 18 samples.

Results

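Glycolytic enzyme paralogs are the genes that encode alternative forms of the enzyme for one step of glucose breakdown. The 10 genes described here, *Hk1*, *Hk2*, *Gpi1*, *Pfkl*, *Pfkm*, *Pfkp*, *Aldoa*, *Aldoc*, *Eno1* and *Eno2*, were chosen by symbol and filled 11 of the 55487 gene rows of the count table. The extra row is a second *Aldoa* entry (ENSMUSG00000114515) with at most 7 counts in a library, which did not pass the filter on low counts, so that 10 of the 11 rows were tested among 16174 genes. RNA was measured by bulk poly-A RNA-seq in 18 libraries of tail tendon fibroblasts (TFs) from adult male and female mice after 4 days in 20% or 1% O2, with 3 replicates in each of 6 groups. The label of Ctrl TFs is wild-type. By the study's methods their donors lacked Cre, in a colony whose Cre-negative mice were *Hif1a* fl/fl. The cKO TFs came from *Hif1a* fl/fl mice with a constitutive *Scx*-driven Cre, on a mixed background, which deletes *Hif1a*, the gene of the hypoxia-inducible factor subunit HIF-1α, in tendon-lineage cells. The third arm, Ctrl gesicles, was Ctrl TFs given Cre-carrying vesicles to knock *Hif1a* down in culture, and its label is also wild-type.

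Glycolysis turns glucose into pyruvate and yields ATP without O2. Hexokinase (*Hk1*, *Hk2*) traps glucose as glucose 6-phosphate, glucose-6-phosphate isomerase (*Gpi1*) converts this to fructose 6-phosphate, and phosphofructokinase (*Pfkl*, *Pfkm*, *Pfkp*, the liver, muscle and platelet types) adds a further phosphate in the main regulated step. Aldolase (*Aldoa*, the widespread form, and *Aldoc*, the brain form) then splits the sugar, and enolase (*Eno1*, the widespread form, and *Eno2*, the neuronal form) makes phosphoenolpyruvate near the end of the pathway. Many genes of this pathway are known targets of HIF-1, which binds a short core sequence in DNA when O2 is low.

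The upstream DNA of the 3 phosphofructokinase genes is shown because these paralogs differed most in their response to O2. Each stretch is the part of the 250 bases before a RefSeq start (GRCm38.p6) that lies outside annotated exons, read 5′ to 3′ on the gene's strand. Capitals mark ACGTG or GCGTG, the core letters of the HIF-binding sequence, on either strand (CACGT or CACGC when read from the other strand). *Pfkl* is shown from chr10:78009808-78010004 (minus strand), *Pfkm* from chr15:98092339-98092588 (plus strand, the first of its 4 starts) and *Pfkp* from chr13:6648778-6649021 (minus strand).
Pfkl: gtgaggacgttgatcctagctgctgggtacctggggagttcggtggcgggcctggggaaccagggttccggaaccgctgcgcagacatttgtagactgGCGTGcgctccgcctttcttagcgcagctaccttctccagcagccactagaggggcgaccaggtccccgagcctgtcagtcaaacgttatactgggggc
Pfkm: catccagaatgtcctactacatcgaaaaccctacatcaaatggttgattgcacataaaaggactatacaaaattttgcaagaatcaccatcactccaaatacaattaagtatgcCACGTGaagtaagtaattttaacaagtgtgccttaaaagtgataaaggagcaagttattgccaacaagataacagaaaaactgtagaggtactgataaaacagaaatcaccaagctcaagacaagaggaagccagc
Pfkp: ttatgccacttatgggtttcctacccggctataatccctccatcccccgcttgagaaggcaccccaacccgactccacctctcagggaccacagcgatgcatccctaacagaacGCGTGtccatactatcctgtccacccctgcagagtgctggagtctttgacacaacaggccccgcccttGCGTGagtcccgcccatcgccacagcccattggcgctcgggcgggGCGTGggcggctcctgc
The *Pfkl* stretch held 1 match, the *Pfkm* stretch 2 matches that overlap in CACGTG, which reads the same on both strands, and the *Pfkp* stretch 3 matches. Over the windows of 300 bases around all starts (250 before, 50 after), 43.8% of 32851 windows held at least 1 match. The windows of the 4 *Pfkm* starts held 3, 2, 1 and 0 matches, and which start is used in these TFs was not tested. A match was found at 1 or more starts of 4 of the 5 genes that rose in Ctrl TFs (*Pfkl*, *Aldoa*, *Aldoc* and *Eno1*) and of 4 of the other 5 (*Hk1*, *Hk2*, *Pfkm* and *Pfkp*). Among all genes with a window, 46.7% held a match. *Gpi1* and *Eno2* had none in these windows.

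Library totals ranged from 6857558 counts (cKO 1% O2 replicate 1) to 51806451, which puts 3 counts, taken as the floor, at 0.0592 to 0.427 CPM (counts scaled to library size). All 7 tendon fibroblast markers, among them *Scx* and *Tnmd*, were over 1 CPM in every library. Of 5 skeletal muscle markers only *Acta1* was over 1 CPM and *Ckm* was at 0, the neural marker *Tubb3* was over 1 CPM in every library, of 4 macrophage markers *Csf1r* and *Cd68* were over 1 CPM in at least 1 library, and all 3 endothelial and 2 adipocyte markers stayed under 1 CPM. *Hif1a* itself was counted at 294 to 504 CPM and was not lower in the libraries labelled cKO: against Ctrl it differed by a log2 fold change of 0.11 in 20% O2 (edgeR adjusted p = 0.693, SE 0.142) and 0.079 in 1% O2 (edgeR adjusted p = 0.778, SE 0.142). A count of the entire gene can include exons outside a deleted one, so it does not check the genotype labels. Which exons the reads fell on was not examined. By qPCR after a longer culture, the paper reports lower *Hif1a* expression in tail TFs of cKO mice. In gesicle-treated TFs the *Hif1a* difference from Ctrl was 0.055 in 20% O2 (edgeR adjusted p = 1.000) and −0.13 in 1% O2 (edgeR adjusted p = 1). *Xist*, expressed from the X chromosome in females, was over 1 CPM in Ctrl and gesicle replicates 2 and 3 and in cKO replicate 1, at both O2 levels.

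Below, levels are CPM adjusted by edgeR's TMM method, as mean ± SD with n = 3, and library values are given in the order of replicates 1 to 3. A gene was called changed at a Benjamini-Hochberg adjusted p under 0.05 over all 16174 genes with a fold change of at least 1.5, by edgeR's quasi-likelihood test in 1 fit of all 18 libraries. These were bulk samples, so fewer cells that express a gene and less RNA per cell cannot be told apart. Groups are said not to overlap where every library of one lies above every library of the other. Between O2 levels this held for 29.7% of all genes tested in Ctrl TFs, 20.5% in cKO TFs and 24.0% in gesicle-treated TFs. In 1% O2 it held for 27.0% between cKO and Ctrl TFs and 6.32% between gesicle-treated and Ctrl TFs. Nothing in the labels says how the replicates were kept separate in culture.

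In Ctrl TFs, 5 of the 10 genes were called higher in 1% than in 20% O2 and 0 were called lower. Over all genes tested, 2.68% were called in this comparison and 2.01% were called higher. The 5 were *Pfkl*, *Aldoc*, *Aldoa*, *Eno1* and *Gpi1*, so that 1 paralog of the phosphofructokinase step, both of the aldolase step and 1 of the enolase step rose, while neither hexokinase did. The median log2 fold change of the 10 genes was 0.68, against −0.0068 over all genes tested.

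At the hexokinase step, *Hk1* (ENSMUSG00000037012, chromosome 10 from 62268855 to 62379908, GRCm38) was at 191, 199 and 175 CPM in Ctrl 20% O2 and at 229.8, 202 and 203 CPM in Ctrl 1% O2. The 1% libraries lay just above the 20% libraries, with a log2 fold change of 0.17 (edgeR adjusted p = 0.642, SE 0.154). *Hk2* (ENSMUSG00000000628, chromosome 6 from 82725025 to 82774454), the more inducible form, was at 15.3, 14.8 and 11.2 CPM in 20% O2 and 10.1, 14.1 and 12.2 CPM in 1% O2. Its groups overlapped, with a log2 fold change of −0.18 (edgeR adjusted p = 0.797, SE 0.276).

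*Gpi1* (ENSMUSG00000036427, chromosome 7 from 34201330 to 34230336), which has no paralog among these genes, rose from 217, 224 and 191 CPM to 526, 408 and 380.2 CPM. Every 1% library was above every 20% library, and replicate 1 was the highest. It had a log2 fold change of 1.06 (edgeR adjusted p = 8.61e-05, SE 0.118). A processed copy, *Gpi-ps*, was counted at 0.490% to 0.822% of *Gpi1* in 17 libraries and at 2% in cKO 1% O2 replicate 1.

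At the phosphofructokinase step, *Pfkl* (ENSMUSG00000020277, chromosome 10 from 77986947 to 78010083) was at 49.8, 54.5 and 46.8 CPM in 20% O2 and at 335, 278 and 276 CPM in 1% O2. The groups lay far apart, with a log2 fold change of 2.56 (edgeR adjusted p = 3.94e-09, SE 0.120). *Pfkm* (ENSMUSG00000033065, chromosome 15 from 98092589 to 98132451) was at 31.7, 31.5 and 35.9 CPM in 20% O2 and at 38.6, 41.9 and 42.4 CPM in 1% O2. These groups did not overlap, but the log2 fold change of 0.31 (SE 0.102) missed the threshold (edgeR adjusted p = 0.116). *Pfkp* (ENSMUSG00000021196, chromosome 13 from 6579768 to 6648777) was at 75.2, 74.9 and 92.3 CPM in 20% O2 and at 89.1, 95.9 and 115 CPM in 1% O2. Its groups overlapped, with a log2 fold change of 0.31 (edgeR adjusted p = 0.297, SE 0.146).

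At the aldolase step, *Aldoa* (ENSMUSG00000030695, chromosome 7 from 126795234 to 126800751) rose from 608, 575 and 573 CPM to 1914, 1493 and 1590.0 CPM, a log2 fold change of 1.51 (edgeR adjusted p = 4.85e-05, SE 0.159). *Aldoc* (ENSMUSG00000017390, chromosome 11 from 78322968 to 78327781) rose from 0.858, 1.45 and 1.03 CPM to 8.97, 9.65 and 5.55 CPM. Every 1% library was above every 20% library for both genes. *Aldoc* had a log2 fold change of 2.85 (edgeR adjusted p = 4.78e-05, SE 0.299), and its lowest count in any library was 32.

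At the enolase step, *Eno1* (ENSMUSG00000063524, chromosome 4 from 150236721 to 150248879) had the highest CPM of the 10 genes and rose from 1564, 1474 and 1403 CPM to 3761, 2670.1 and 2963 CPM. Its log2 fold change was 1.08 (edgeR adjusted p = 0.000295, SE 0.138). *Eno2* (ENSMUSG00000004267, chromosome 6 from 124760053 to 124769673) was at 9.44, 9.54 and 10.1 CPM in 20% O2 and at 8.42, 9.92 and 9.49 CPM in 1% O2. Its groups overlapped, with a log2 fold change of −0.062 (edgeR adjusted p = 0.897, SE 0.164). *Eno1b*, an intronless copy of *Eno1* that can share its reads, was counted at 1.105% to 1.35% of *Eno1* in 17 libraries and at 2.13% in cKO 1% O2 replicate 1.

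**Figure D1:**
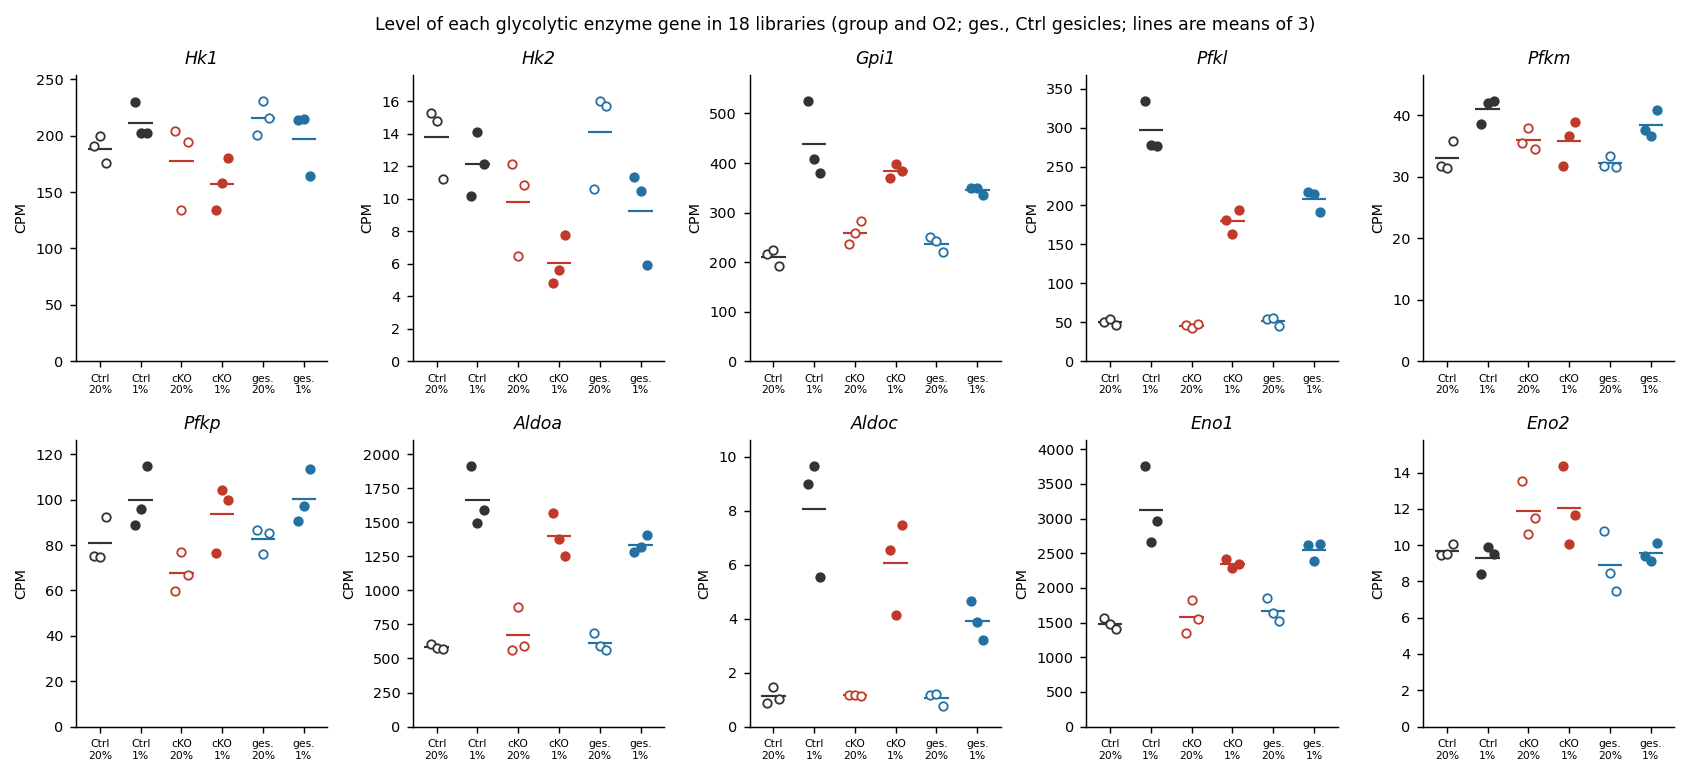
CPM (linear axis from 0) of each of the 10 genes in every library, by arm and O2 level, with open points for 20% and filled points for 1% O2 and a line at the mean of 3. *Pfkl*, *Aldoa*, *Aldoc*, *Eno1* and *Gpi1* were higher in 1% O2 in each arm, while *Hk1*, *Hk2* and *Eno2* showed no such step.

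In cKO TFs, *Pfkl*, *Aldoa* and *Aldoc* were called higher in 1% O2, 3 of the 10 genes, against 3.01% of all genes called and 1.94% called higher. *Pfkl* rose from 47.0, 42.5 and 47.8 CPM to 181, 163 and 194 CPM (log2 fold change 1.97, SE 0.118, edgeR adjusted p = 7.54e-08). *Aldoc* rose from 1.18, 1.17 and 1.13 CPM to 6.54, 4.15 and 7.45 CPM (log2 fold change 2.37, SE 0.297, edgeR adjusted p = 0.000382). *Aldoa* rose from 561, 876 and 588 CPM to 1567, 1378 and 1256 CPM, with replicate 2 high in 20% O2 (log2 fold change 1.05, SE 0.157, edgeR adjusted p = 0.00152). In a fit of the cKO libraries alone *Aldoa* had a log2 fold change of 1.08 and missed the threshold (edgeR adjusted p = 0.0861, the highest of its alternatives, which began at 3.82e-08).

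*Gpi1* and *Eno1* passed the p threshold in cKO TFs but fell just short of the 1.5-fold minimum. *Eno1* was called when any of 11 single libraries was left out, among them each of the 6 Ctrl libraries (edgeR adjusted p 0.00992 to 0.0485 over the 11), with a log2 fold change of 0.59 except 0.70 without cKO 20% O2 replicate 2. *Gpi1* was called without cKO 20% O2 replicate 3 (0.65, edgeR adjusted p = 0.0269) or cKO 1% O2 replicate 1 (0.595, edgeR adjusted p = 0.0334). *Gpi1* went from 259 ± 23.5 to 384 ± 14.6 CPM (log2 fold change 0.57, SE 0.117, edgeR adjusted p = 0.0133), and *Eno1* from 1574 ± 243 to 2349.5 ± 60.5 CPM (log2 fold change 0.58, SE 0.137, edgeR adjusted p = 0.0274). For both, the libraries of the 2 O2 levels did not overlap. The remaining genes were not called: *Hk1* went from 178 ± 37.8 to 157 ± 23.3 CPM, *Hk2* from 9.81 ± 2.98 to 6.06 ± 1.51 CPM, *Pfkm* from 36.0 ± 1.75 to 35.7 ± 3.65 CPM, *Pfkp* from 67.9 ± 8.72 to 93.6 ± 15.04 CPM and *Eno2* from 11.9 ± 1.498 to 12.02 ± 2.18 CPM. The lowest adjusted p among these 5 was that of *Pfkp* (log2 fold change 0.47, edgeR adjusted p = 0.0857), and *Hk2* had the largest negative value (−0.67, SE 0.285, edgeR adjusted p = 0.194).

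In gesicle-treated TFs, *Pfkl*, *Aldoc*, *Aldoa* and *Eno1* were called higher in 1% O2, 4 of the 10 genes, against 2.41% of all genes called and 1.64% called higher. *Pfkl* rose from 54.6, 55.8 and 45.2 CPM to 217, 215 and 191 CPM (log2 fold change 2.001, SE 0.118, edgeR adjusted p = 1.07e-07), *Aldoc* from 1.16, 1.2 and 0.769 CPM to 4.64, 3.88 and 3.22 CPM (1.91, SE 0.291, edgeR adjusted p = 0.00181) and *Aldoa* from 612 ± 67.1 to 1335 ± 62.5 CPM (1.13, SE 0.157, edgeR adjusted p = 0.00101). *Eno1* rose from 1849, 1643 and 1527 CPM to 2613, 2395 and 2630.2 CPM (0.61, SE 0.137, edgeR adjusted p = 0.0263). Its call was lost when any of gesicle replicates 2 and 3 in 20% O2 or 1 to 3 in 1% O2 was left out, with edgeR adjusted p values of 0.0582 to 0.118, and in a fit of the gesicle libraries alone (edgeR adjusted p = 0.0692, of a range from 0.00118 over its 9 alternatives). *Gpi1* went from 238 ± 15.7 to 345 ± 8.23 CPM and was below the fold minimum (0.54, SE 0.117, edgeR adjusted p = 0.0218). The other 5 genes, with log2 fold changes from −0.61 (*Hk2*, edgeR adjusted p = 0.270) to 0.28 (*Pfkp*, edgeR adjusted p = 0.334), were not called.

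**Figure D2:**
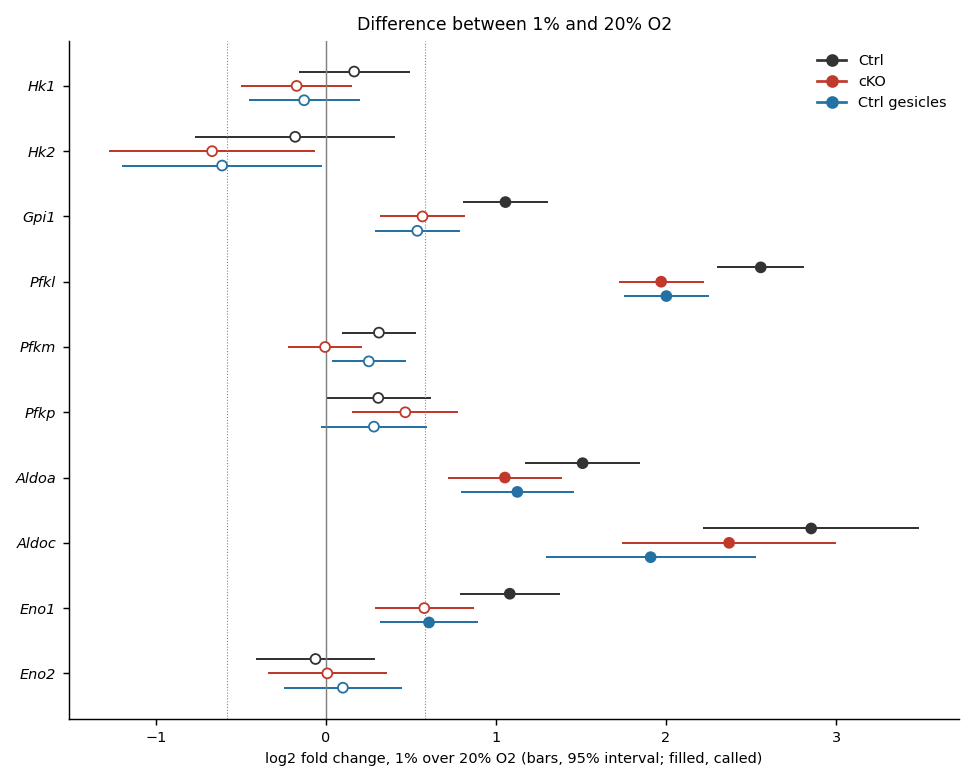
Log2 fold change between 1% and 20% O2 of each gene in Ctrl, cKO and gesicle-treated TFs, with 95% intervals; filled points were called and dotted lines mark a 1.5-fold change. *Pfkl* and *Aldoc* lay highest in all 3 arms, and *Hk2* and *Eno2* lay at or below 0.1.

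The ratio of paralogs within 1 library does not depend on how libraries are scaled. It was taken as the log2 ratio of counts, with 0.5 added to each, for 6 pairs. The change between O2 levels was averaged over the 3 arms and tested with a 2-sided exact permutation test that exchanged the O2 labels within arms (8000 arrangements, smallest p 0.00025), with Benjamini-Hochberg adjustment over the 6 pairs. Within 1 arm, 3 against 3 libraries allow no p below 0.1, so the arms are given as values. Ctrl and gesicle libraries of the same replicate number were correlated around their group means (r 0.346 to 0.462 in 20% and 0.193 to 0.284 in 1% O2). The arms may therefore not be independent. Over the alternatives, among them the Ctrl and cKO libraries alone (smallest p 0.005), the permutation adjusted p was at most 0.012 for every ratio except *Pfkp* to *Pfkm*.

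The *Pfkp* to *Pfkl* ratio fell by 1.83 on the log2 scale in 1% O2 (exact permutation p = 0.00025, adjusted p = 0.0005), with changes of −2.25 in Ctrl, −1.51 in cKO and −1.73 in gesicle-treated TFs. The *Pfkm* to *Pfkl* ratio fell by 1.99 (exact permutation p = 0.00025, adjusted p = 0.0005), with −2.24, −1.98 and −1.75 in the same order. All 9 same-numbered pairs of libraries moved down in both ratios. *Pfkp* to *Pfkm* rose by 0.16 and missed the threshold (exact permutation p = 0.0545), with changes of −0.0066 in Ctrl, 0.47 in cKO and 0.027 in gesicle-treated TFs. Its adjusted p fell to 0.0335 to 0.0453 when 1 of 6 Ctrl or gesicle libraries was left out, namely Ctrl 20% O2 replicate 3, Ctrl 1% O2 replicates 1 and 2, gesicle 20% O2 replicates 1 and 3 and gesicle 1% O2 replicate 1.

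The *Aldoc* to *Aldoa* ratio rose by 1.12 (exact permutation p = 0.00025, adjusted p = 0.0005), with 1.33 in Ctrl, 1.25 in cKO and 0.78 in gesicle-treated TFs, and all 9 pairs moved up. The *Eno2* to *Eno1* ratio fell by 0.73 (exact permutation p = 0.0005, adjusted p = 0.00075), with −1.13, −0.58 and −0.49 in the 3 arms, and all 9 pairs moved down. The *Hk2* to *Hk1* ratio fell by 0.45 (exact permutation p = 0.00125, adjusted p = 0.0015), with −0.35, −0.50 and −0.50, and 8 of 9 pairs moved down. The ratio of the 2 hexokinases thus shifted towards *Hk1* although neither gene was called in any arm.

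Levels were compared between genes per length, as CPM per kilobase of annotated exon. At 20% O2 in Ctrl TFs, *Eno1* stood at 275 ± 14.9 and *Aldoa* at 201 ± 6.64 CPM per kb, above *Gpi1* at 32.7 ± 2.69 and *Hk1* at 22.1 ± 1.42. The 3 phosphofructokinase genes lay close together, with *Pfkm* at 9.88 ± 0.742, *Pfkl* at 7.55 ± 0.585 and *Pfkp* at 6.03 ± 0.742 CPM per kb. *Hk2* at 2.31 ± 0.370 and *Eno2* at 2.06 ± 0.0722 overlapped, and *Aldoc* was lowest at 0.341 ± 0.0926. In 1% O2 *Aldoa* at 572 ± 75.8 and *Eno1* at 582 ± 105 overlapped, and *Pfkl* at 44.4 ± 4.96 had passed *Hk1* at 24.8 ± 1.86 CPM per kb. Neighbours in this order depended on the length. With the longest transcript, *Eno2* at 3.46 ± 0.122 lay above *Hk2* at 2.496 ± 0.401 CPM per kb in 20% O2, and *Eno1* at 1545 ± 279 above *Aldoa* at 1075 ± 142 CPM per kb in 1% O2, and neither pair overlapped.

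Shares are of the summed CPM per kb of the members of a step among the 10 genes, so that *Eno1b* (16.0 to 51.4 CPM) and *Eno3* (2.73 to 6.48 CPM) are not in the enolase sum. *Pfkl* went from 32.3% ± 3.48 to 69.1% ± 3.79 in Ctrl TFs, from 30.3% ± 2.71 to 60.3% ± 3.74 in cKO TFs and from 32.9% ± 2.58 to 62.1% ± 3.53 in gesicle-treated TFs. *Pfkm*, the largest share in 20% O2 at 40.9% to 47.5%, went to 19.2% to 24.0%. Which of *Pfkl* and *Pfkm* led in 20% O2 depended on the length used: with the longest transcript in place of all exons, *Pfkl* held 39.5% and *Pfkm* 33.4% in Ctrl TFs, and 37.7% and 38.3% in cKO TFs. *Pfkl* led in 1% O2 with either length. The whole phosphofructokinase step went from 23.5 ± 1.06 to 64.1 ± 3.71 CPM per kb in Ctrl TFs.

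*Hk2* held 9.41% ± 0.958 of the hexokinase step in Ctrl 20% O2 and 5.17% ± 0.536 in cKO 1% O2, the highest and lowest of the 6 group means. With the longest transcript as length these were 5.34% and 2.88%. *Aldoc* never held more than 0.574% of the sum of *Aldoa* and *Aldoc* in a library, and *Eno2* never more than 1.13% of the sum of *Eno1* and *Eno2*. Their ratios to *Aldoa* and *Eno1* changed with O2, as given above.

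**Figure D3:**
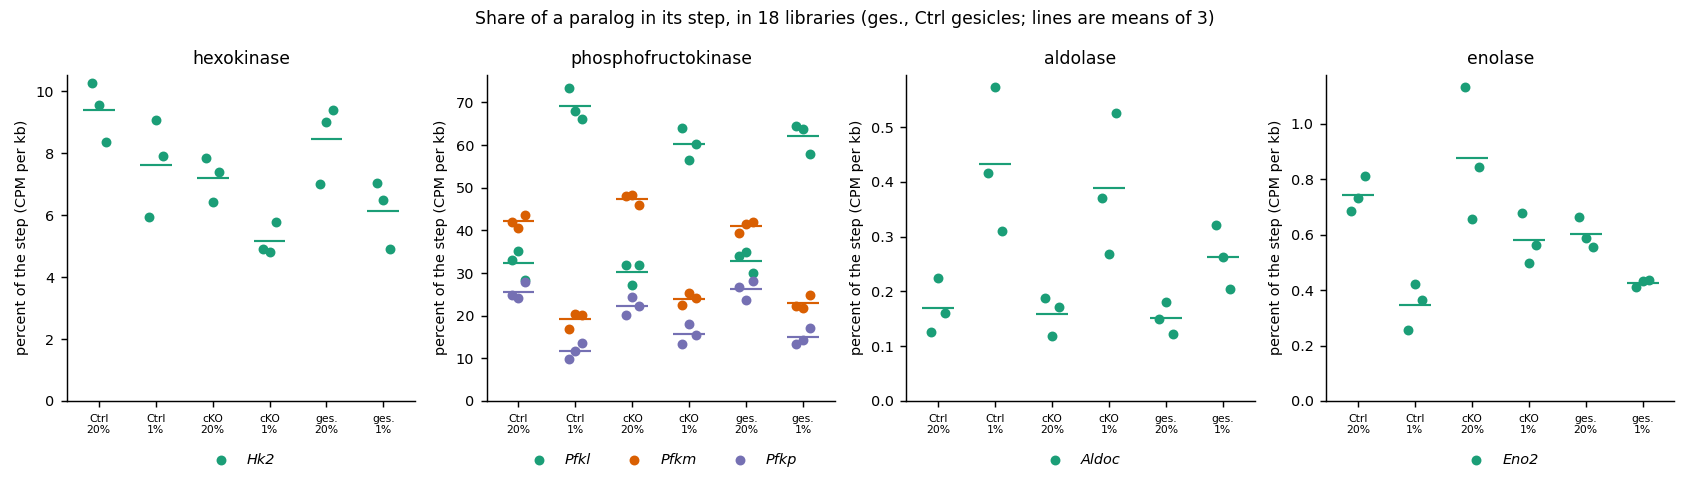
Percent of the summed CPM per kb of a step's members held by *Hk2*, the 3 phosphofructokinase genes, *Aldoc* and *Eno2* in each library, by arm and O2 level; lines are means of 3. *Pfkl* went from group means of 30.3% to 32.9% in 20% O2 to 60.3% to 69.1% in 1% O2 across the arms.

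Between cKO and Ctrl TFs in 20% O2, 0 of the 10 genes were called by edgeR or DESeq2, against 0.538% of all genes by edgeR, and 1 (*Gpi1*) had an unadjusted p under 0.05, as did 15.3% of all genes. Log2 fold changes ran from −0.49 (*Hk2*) to 0.30 (*Gpi1*). In 1% O2, *Pfkl* was the 1 gene called, lower in cKO TFs, where 0.0866% of all genes were called. It was at 335, 278 and 276 CPM in Ctrl and at 181, 163 and 194 CPM in cKO TFs, groups that did not overlap (log2 fold change −0.72, SE 0.114, edgeR adjusted p = 0.0238). The call was lost when any of these 6 libraries was left out, with log2 fold changes of −0.60 (without Ctrl 1% O2 replicate 1) to −0.77 and adjusted p values of 0.0716 to 0.187. It was also lost in a fit of the 2 groups alone (edgeR adjusted p = 0.0994), the highest of its 8 alternatives, which began at 7.08e-06.

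The 2 groups differ in sex make-up by *Xist*, over 1 CPM in Ctrl replicates 2 and 3 and cKO replicate 1. *Pfkl* in 1% O2 was at 335 CPM in the Ctrl library without *Xist* and at 163 and 194 in the cKO libraries without it, and at 278 and 276 against 181 CPM in those with it. With 1 library on a side in each class, the part of sex in the result was not tested. The summed tendon markers, mostly collagen genes, were at 4330.4 to 11353 CPM in cKO 1% O2 and 7217 to 14711 CPM in Ctrl 1% O2. *Tnmd* was at 83.9, 64.2 and 210.1 CPM in cKO and 88.7, 44.8 and 50.3 CPM in Ctrl. *Mkx* was at 56.8, 51.1 and 57.5 against 31.7, 64.6 and 21.1 CPM, and *Scx* at 7.40, 17.5 and 17.7 against 9.55, 14.7 and 6.20 CPM. The groups overlapped for each of these genes. The summed muscle markers, nearly all *Acta1* with *Ckm* at 0, were at 16.6 to 20.04 CPM in cKO and 24.0 to 30.3 CPM in Ctrl 1% O2. Their part in the result was not tested.

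The other 9 genes were not called in this comparison. At an unadjusted p under 0.05, 5 of the 10 passed, against 17.8% of all genes. *Hk2* had the largest difference, 6.06 ± 1.51 CPM in cKO against 12.1 ± 1.996 CPM in Ctrl TFs (log2 fold change −0.98, SE 0.285, edgeR adjusted p = 0.177, and 0.0450 to 0.199 over its alternatives, of which DESeq2 gave the lowest). All 3 cKO libraries were below all 3 Ctrl libraries for *Hk2*, and also for *Hk1* (−0.42, edgeR adjusted p = 0.217) and *Eno1* (−0.41, edgeR adjusted p = 0.196). For *Eno2* they were all above. Groups did not overlap in this comparison for 27.0% of all genes tested. *Gpi1*, *Pfkm*, *Pfkp*, *Aldoa* and *Aldoc* had values from −0.42 (*Aldoc*) to −0.092 (*Pfkp*). *Eno2* was the 1 gene with a positive value (0.36, SE 0.166, edgeR adjusted p = 0.273). The median over the 10 genes was −0.33, against 0.0062 over all genes tested.

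Between gesicle-treated and Ctrl TFs, 0 of the 10 genes were called at either O2 level by edgeR or DESeq2, against 0.0247% of all genes in 20% O2 and 0% in 1% O2 by edgeR. At an unadjusted p under 0.05, 0 of the 10 passed in 20% O2, against 3.67% of all genes, and 4 in 1% O2, against 2.003% of all genes. In 20% O2 the log2 fold changes ran from −0.12 to 0.20. In 1% O2 they were −0.51 for *Pfkl* (95% interval −0.75 to −0.27), −1.04 for *Aldoc* (−1.62 to −0.45), −0.35 for *Gpi1* (−0.59 to −0.099) and −0.30 for *Eno1* (−0.59 to −0.0089), each with an edgeR adjusted p = 1. *Pfkl* was at 217, 215 and 191 CPM with gesicles and 335, 278 and 276 CPM without, and *Aldoc* at 4.64, 3.88 and 3.22 against 8.97, 9.65 and 5.55 CPM. The groups did not overlap for either gene, as was so for 6.32% of all genes tested. The cKO and gesicle comparisons share the same Ctrl libraries.

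**Figure D4:**
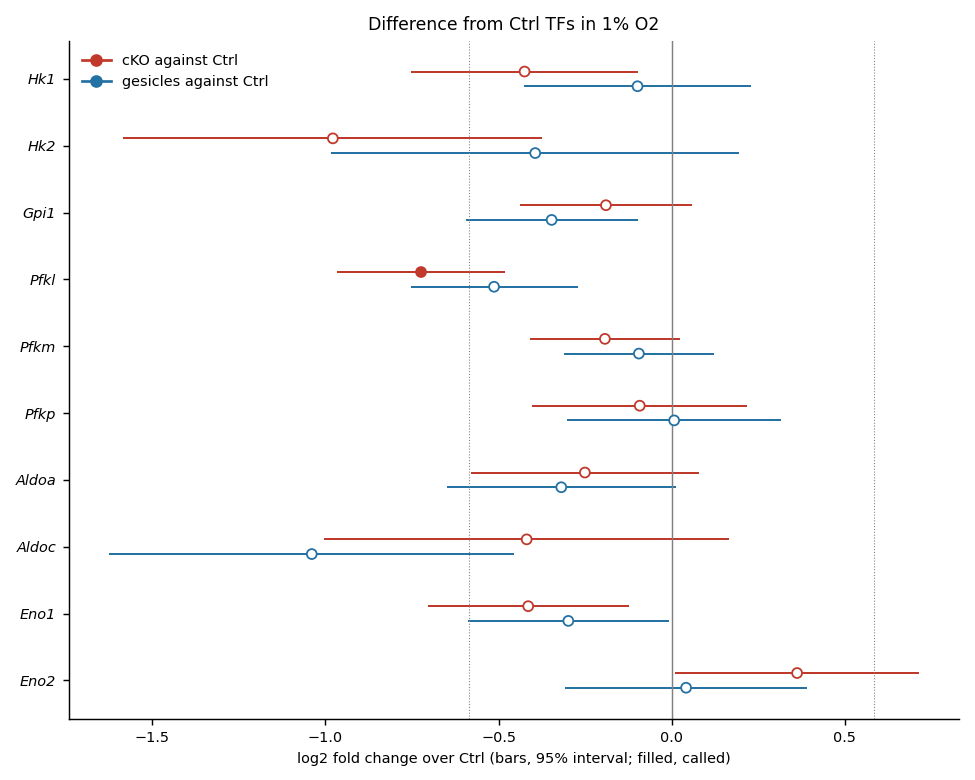
Log2 fold change from Ctrl TFs in 1% O2 of each gene in cKO and gesicle-treated TFs, with 95% intervals; the filled point was called and dotted lines mark a 1.5-fold change. Only *Pfkl* in cKO TFs was called, and 9 of 10 cKO values and 8 of 10 gesicle values lay below 0.

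Whether the O2 response itself differed between arms was tested as an interaction. Of the 10 genes, 0 were called for genotype and 0 for gesicles by edgeR or DESeq2, against 0% of all genes in both, and 4 had an unadjusted p under 0.05 in each (*Gpi1*, *Pfkl*, *Pfkm* and *Eno1* for genotype; *Gpi1*, *Pfkl*, *Aldoc* and *Eno1* for gesicles). The share of all genes at that threshold was 2.73% for genotype and 1.502% for gesicles. For genotype, the difference in log2 fold change (cKO minus Ctrl) was −0.59 for *Pfkl* (95% interval −0.93 to −0.24), −0.50 for *Eno1* (−0.91 to −0.093), −0.49 for *Gpi1* (−0.84 to −0.14), −0.46 for *Aldoa* (−0.92 to 0.0098) and −0.48 for *Aldoc* (−1.34 to 0.38), each with an edgeR adjusted p = 1.000. For gesicles it was −0.56 for *Pfkl*, −0.47 for *Eno1*, −0.52 for *Gpi1*, −0.38 for *Aldoa* and −0.94 for *Aldoc*, each with an edgeR adjusted p = 1.000. A difference between the arms in the O2 response of these genes was therefore not shown at this sample size, and the intervals for *Pfkl* and *Gpi1* also do not show that the arms respond alike.

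The other enzymes of the pathway were read from fixed lists. Over all genes tested, 2.01% were called higher in 1% O2 in Ctrl TFs, 1.94% in cKO TFs and 1.64% in gesicle-treated TFs. Of 8 further glycolysis enzymes, 6 were called higher in 1% O2 and 0 lower in Ctrl TFs, 6 and 0 in cKO TFs and 4 and 0 in gesicle-treated TFs. Their median log2 fold changes were 1.08, 0.88 and 0.74, against −0.0068, −0.037 and −0.020 over all genes. The 4 largest in Ctrl TFs were *Ldha*, which makes lactate from pyruvate (log2 fold change 1.75, SE 0.171, edgeR adjusted p = 2.78e-05), *Tpi1* (1.57, SE 0.157), which interconverts the triose phosphates made by aldolase, *Pgam1* (1.19, SE 0.168) and *Pgk1* (1.15, SE 0.138). These 4 were called in all 3 arms.

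Among further paralogs of the same steps, *Eno1b* was called higher in 1% O2 in Ctrl TFs (log2 fold change 1.11, SE 0.200, edgeR adjusted p = 0.00503) and in cKO TFs (0.88, SE 0.200, edgeR adjusted p = 0.0223), and was not called in gesicle-treated TFs. Its reads cannot be told apart from those of *Eno1* with certainty. *Hk3*, *Hkdc1* and *Eno4* stayed under 1 CPM in every library.

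Of 9 enzymes that reverse or regulate these steps, 6 passed the filter, with median log2 fold changes of −0.34, −0.24 and −0.12 in the 3 arms. *Pfkfb3*, which makes the fructose 2,6-bisphosphate that activates phosphofructokinase, was called higher in all 3 arms, with log2 fold changes of 2.29 in Ctrl (SE 0.308, edgeR adjusted p = 0.000532), 1.79 in cKO (SE 0.308, edgeR adjusted p = 0.00456) and 1.45 in gesicle-treated TFs (SE 0.301, edgeR adjusted p = 0.0158). *Tigar*, which degrades that activator, was called lower in cKO TFs (−0.88, SE 0.189, edgeR adjusted p = 0.0171), and had values of −0.59 in Ctrl (edgeR adjusted p = 0.0979) and −0.63 in gesicle-treated TFs (edgeR adjusted p = 0.0806). The other 4 of the 6 were not called in any arm, and the gluconeogenic enzyme gene *Fbp1* was at 0 in every library. The genes named here from the 8 glycolysis enzymes and the 9 reverse or regulatory enzymes were not called by edgeR in the other 6 comparisons.

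Across the 18 libraries, the 5 genes that rose in Ctrl TFs followed each other, with Pearson r of log2 CPM from 0.899 to 0.963. *Hk1* and *Hk2* had an r of 0.817 with each other. These values are a description, since the points share the O2 step and the arms. Among 12824 genes with a mean over 1 CPM, those most like *Pfkl* were *Slc16a3*, a lactate exporter (r 0.984), and *Pdk1*, a kinase that inhibits pyruvate dehydrogenase (r 0.981). *Pdk1* was also first for *Aldoc* (r 0.972). *Pgm1* was first for *Aldoa* (r 0.987) and *Eno1* (r 0.987), and *Tpi1* was first for *Gpi1* (r 0.963) and next for *Aldoa* (r 0.987). The nearest genes of the others were *Irf2bpl* for *Hk1* (r 0.957), *Cluh* for *Hk2* (r 0.968), *Plaat1* for *Pfkp* (r 0.933), *Ptdss2* for *Pfkm* (r 0.850) and *Etfbkmt* for *Eno2* (r 0.833).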

How the data were processed

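The 18 libraries were poly-A selected and read as pairs. The authors trimmed the reads (cutadapt), aligned them to GRCm38 (STAR) and deposited expected counts from RSEM 1.3.3 as whole numbers, not normalized. RSEM divides reads that match several genes among them, which bears on copies of *Eno1*, *Aldoa* and *Gpi1*. The annotation release is not given in the sources used here.

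Low counts were removed by filterByExpr. The quasi-likelihood test of edgeR 4.0.16 (R 4.3.3) used TMM factors and 1 coefficient per group over all libraries, and was tested on simulated data. Standard errors are the log2 fold change over the square root of F. Library totals were 6857558 to 51806451 counts, and floors of 3 counts cover counting error only. Exon lengths came from GENCODE M21, and promoter windows for all 10 genes from RefSeq. The members and lists were chosen with earlier results of these data known. All 10 genes were tested in every comparison, but not all are named in each. Other genes are named by size among the called genes of each list (at most 4) or by likeness (the nearest 2, of which the first is given for most). Same-numbered libraries had residual correlations over 0.1 in every pair between Ctrl 20% and 1% O2 (0.271, 0.300, 0.458) and between Ctrl and gesicle groups at each O2 level, but not between the cKO groups (0.0956, 0.0921, 0.368) or in other comparisons. The numbers come from the sample titles. Alternatives were DESeq2 1.42.0, RLE factors, other filters, replicate blocks, smaller fits, no fold minimum, copies added to *Eno1* and *Aldoa*, other pseudocounts and lengths, and each library left out. The labels and the paper's methods give different serum levels. Some listed genes are not reported here.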

Additional observations from a re-analysis of the deposited data

Results flagged for a closer look

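Counts of the Cre transgene, a row outside the comparisons, were found in 5 of the 6 cKO libraries, with at most 5 counts in a library, and in 0 of the 12 other libraries, gesicle-treated ones included. Groups of 3 libraries were not tested for outlying values.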

How the results depend on the processing

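With all libraries kept, 74 recomputed counts of called genes stayed within 1.5 times the reported count and 3 did not. The 74 include comparisons in which a count of 0 stayed at 0. A change from 3 to 2 also counts as within 1.5 times, so the lost call of *Aldoa* in the fit of cKO libraries alone is not among the 3. The count for cKO TFs between O2 levels was 5 with no fold minimum. The count for cKO against Ctrl in 1% O2 was 2 with DESeq2, 0 in a fit of the groups compared and 0 to 1 with a library left out. With the replicate block the 5 genes called in Ctrl TFs, the 3 in cKO TFs, the 4 in gesicle-treated TFs and the 1 in cKO against Ctrl in 1% O2 were the same in number. With the block within each arm, *Eno1* in cKO TFs was also called (0.59, edgeR adjusted p = 0.0433, of a range of 0.00127 to 0.192). Exchanging signs of same-numbered pairs, the replicate block for the ratios, kept all 6 ratios on their side of the threshold (*Pfkp* to *Pfkm* 0.16, exact permutation adjusted p = 0.105).

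Signs that changed were those of values near 0. *Pfkm* between O2 levels in cKO TFs was −0.0055 and became 0.019 with DESeq2, 0.0046 with RLE factors, 0.0055 with no filter and 0.016 in a fit of the groups compared, and −0.056 to 0.071 with a library left out. *Eno2* in the same comparison was −0.0036 with DESeq2 and −0.13 to 0.13 with a library left out. *Eno2* in gesicle-treated TFs ran from −0.016 to 0.26, and *Pfkp* in cKO against Ctrl in 1% O2 from −0.16 to 0.037. The cause was not tested. For *Pfkp* to *Pfkm* the ratio change ran from 0.14 to 0.18 with a library left out. With the longest transcript as length, 48 share values moved by over 1 SD and 6 did not. Depth limits *Aldoc* and *Hk2* most, at 32 and 34 counts in their lowest libraries.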

Other observations

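Copies of the enzyme genes stood apart in cKO 1% O2 replicate 1, the library of the lowest total. *Aldoart1*, a testis retrogene of *Aldoa*, was counted at 0.354% of *Aldoa* there and at 0.0265% to 0.0971% in the other 17 libraries, and *Aldoart2* at 0.0545% there against at most 0.0192%. *Eno1b* and *Gpi-ps* were also higher relative to their parent genes in that library. Adding the copies to *Eno1* and *Aldoa* left the number of the 10 enzyme genes called unchanged in all 9 comparisons.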
